A study of Mus musculus with 6 samples.

Results

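Mitosis and cytokinesis were followed through 53 genes, chosen by symbol from a fixed list of mitotic kinases and cyclins and of spindle, checkpoint, kinetochore, condensin and cytokinesis genes, out of 23792 gene rows in the table. All 53 symbols were found, each in 1 row, and all 53 positions overlapped the RefSeq gene of that name in GRCm38. The hearts came from male C57BL/6-FVB mice of 6 to 8 weeks that carried a Tet-Off transgene for HIF-PPN, an HA-tagged HIF1α with alanine in place of the prolines and the asparagine through which oxygen controls it, together with a tetracycline transactivator driven by the αMHC promoter, which is active in cardiomyocytes. All mice carried both transgenes and had received doxycycline from conception. Ventricles were sampled from 3 mice still given doxycycline (control) and from 3 mice from which it had been withheld for 3 days (HIF-PPN). Levels are FPKM, the fragments scaled for transcript length and sequencing depth, and the table gives 1 value for each group in which the 3 mice are already merged. It therefore shows no spread between mice, no test could be made, and the depth behind a value is unknown. Every difference below is a difference between these merged values. In whole ventricle, fewer cells of a type and less RNA per cell cannot be told apart.

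Mitosis begins when cyclin A and cyclin B activate the kinase CDK1, which leads to chromosome condensation and spindle assembly. Kinetochores then attach chromosomes to microtubules, a checkpoint holds the cell until all are attached, and the anaphase-promoting complex releases the sister chromatids before the cell is cut apart at the central spindle. Most cardiomyocytes of an adult mouse have left the cell cycle, so transcripts of these genes are scarce in adult ventricle.

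Nearly all mitosis and cytokinesis genes stood higher in HIF-PPN hearts. Of the 53 genes, 51 were higher and 1, the kinetochore gene Cenpf, was lower. Cenph, which encodes a subunit of the inner kinetochore, was listed at 0 in control and at 0.511 FPKM under HIF-PPN and has no ratio. Among all 15547 genes with a value above 0 in both groups, 51.3% were higher. At least 2-fold higher were 41 of the 52 members with a ratio, against 5.29% of all these genes, and at least 2-fold lower was 1 member, against 3.78%. The median log2 ratio of HIF-PPN over control was 1.62 over the members and 0.0093 over all genes with a ratio.

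Most members were under 1 FPKM in control hearts. Their median level was 0.402 FPKM in control hearts (quartiles 0.243 and 0.883) and 1.37 FPKM in HIF-PPN hearts (quartiles 0.995 and 2.57). At 1 FPKM or more were 12 members in control hearts and 39 in HIF-PPN hearts, and 14 members were under 1 FPKM in both. Adding 1 FPKM to both values before the ratio, which damps ratios of scarce genes, left 8 members at least 2-fold higher. They were Cdk1, Ccna2, Ccnb2, Birc5, Top2a, Mki67, Prc1 and Racgap1. The share of all genes past 2-fold with 1 FPKM added was not counted.

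**Figure D1:**
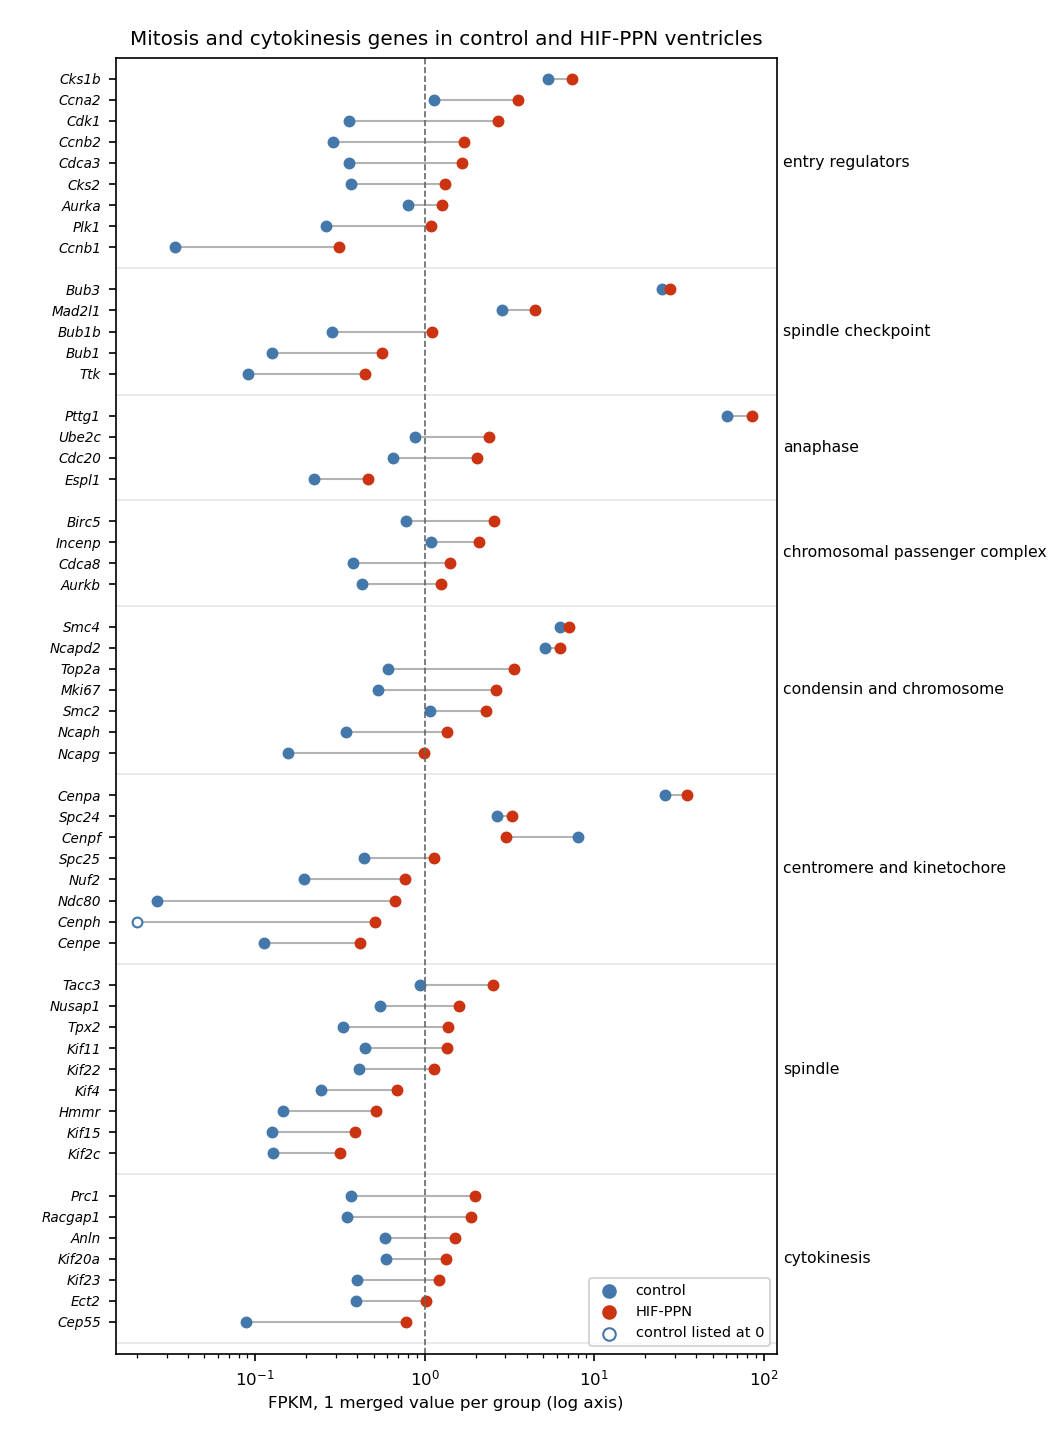
FPKM of each of the 53 genes in control hearts (blue) and HIF-PPN hearts (red) on a log axis, 1 merged value per group, grouped by role, with a dashed line at 1 FPKM and an open circle for Cenph, listed at 0 in control and drawn at the left edge. The red point lies to the right of the blue point for every gene but Cenpf (7.98 and 3.01 FPKM), and of the 7 pairs with the highest control levels all but Cenpf (Pttg1, Cenpa, Bub3, Smc4, Cks1b, Ncapd2) lie within 2-fold.

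Members with lower control levels had larger ratios. The control value is also the denominator of the ratio, so error in a low control value can by itself enlarge it. The 12 members at 1 FPKM or more in control hearts were Pttg1, Cenpa, Bub3, Cenpf, Smc4, Cks1b, Ncapd2, Mad2l1, Spc24, Ccna2, Incenp and Smc2. Of these, 11 were higher (median log2 ratio of the 12 genes 0.45) and 2, Ccna2 and Smc2, were at least 2-fold higher. Among all 11805 genes at that level, 50.9% were higher, 0.991% were higher by 2-fold or more and 1.12% lower by as much. This count rests on few genes: it was 4 at a 1.5-fold threshold and 11 with the minimum set at 0.5 FPKM. The share of all genes at these settings was not counted. The members nearest the line were Smc2 and Incenp, both at 1.08 FPKM in control hearts, and below it Tacc3 (0.935 FPKM) and Ube2c (0.883 FPKM).

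Of the 40 members above 0 and under 1 FPKM in control hearts, all 40 were higher, 39 of them by 2-fold or more, the exception being Aurka (log2 ratio 0.67). Ratios scatter widely at such levels. Of all 3742 genes in that range, 52.6% were higher, 18.9% were higher by 2-fold or more and 12.2% lower by as much. Within narrower bands of control level, the members at least 2-fold higher were 11 of 11 under 0.2 FPKM, where 28.5% of all genes were, 14 of 14 from 0.2 to 0.4 FPKM (13.7%), 9 of 9 from 0.4 to 0.6 FPKM (10.7%) and 5 of 6 from 0.6 to 1 FPKM (6.52%). The bands from 1 to 4 FPKM held 2 of 5 (2.67%), from 4 to 16 FPKM 0 of 4 (0.526%), and above that 0 of 3 (0.416%).

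**Figure D2:**
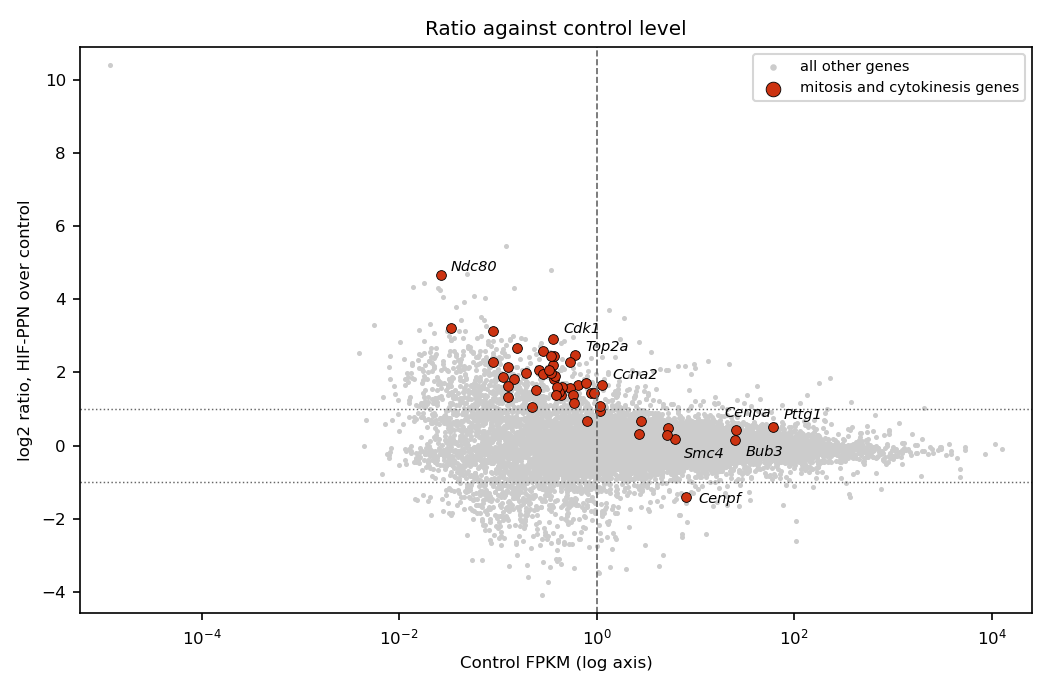
log2 ratio of HIF-PPN over control against the control FPKM (log axis) for all genes above 0 in both groups (grey) and for the 52 mitosis and cytokinesis genes with a ratio (red), with dotted lines at 2-fold and a dashed line at 1 FPKM. Left of 1 FPKM all 40 red points lie above 0, right of it 11 of 12 do, within a smaller range of ratios, and Cenpf alone lies below.

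The differences in level were small. Leaving out Pttg1, Cenpa and Cenpf, chosen after their values were seen, the other 50 members stood higher by 0.191 to 2.92 FPKM, with a median of 0.875 FPKM and quartiles of 0.629 and 1.42 FPKM. The smallest gain was that of Kif2c and the largest that of Bub3, whose control levels were 0.127 and 25.2 FPKM. Of all 16889 genes above 0 in either group, 35.8% stood higher by at least the gain of Kif2c. Pttg1 was higher by 25.1 FPKM and Cenpa by 9.11 FPKM, while Cenpf was lower (difference −4.97 FPKM).

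Many genes of mitosis are known to be repressed in resting cells and activated before division through a promoter element called the CHR, which binds MuvB complexes, and through CCAAT boxes, which bind NF-Y. These letters were looked for in the RefSeq promoter windows of GRCm38, from 250 bases before to 50 after a transcription start. Windows were found for 46 of the 53 genes and not for Aurkb, Ccna2, Incenp, Kif20a, Smc4, Spc24 and Tpx2. The CHR was searched as TTTGAA, the CCAAT box as CCAAT, an E2F site as TTCCCGC or TTGGCGC, and a HIF site as ACGTG or GCGTG, each on both strands, and a CHR and a CCAAT box can share at most 1 base at their ends. A gene with several windows counted as holding a motif when 1 of them did.

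A CHR was found for 34 of the 46 genes (73.9%), against 20.2% of all 27025 genes with a window and 14.5% of the 11505 genes that also had a ratio here. A CCAAT box was found for 34 genes (73.9%), against 41.1% of all genes and 42.0% of those with a ratio, and both were found for 29 (63.0%), against 7.97% and 5.84%. E2F letters were found for 9 genes (19.6%, against 13.4% of genes with a ratio) and HIF letters for 32 (69.6%, against 64.4%). The median GC content of the windows was 58.8% for the members and 60.3% for genes with a ratio. For 31 of the 34 genes the CHR nearest to the start lay within 50 bases of it. In the 29 genes with a CCAAT box before that CHR in the same window, the nearest one began a median of 34 bases earlier. The distance ran from 9 to 153 bases and was 30 to 45 bases in 11 of the 29 genes.

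A CHR in the window did not go with a larger ratio among the members. The median log2 ratio was 1.62 for the 34 genes with a CHR and 1.83 for the 11 genes without one that had a ratio. The windows of 6 genes that hold both motifs are shown, from genes that stood several fold higher to Cenpf, which stood lower. They leave out the members with the largest ratios, Ndc80, Ccnb1 and Cep55. In their windows Ndc80 and Cep55 had no CCAAT box and Ccnb1 had no CHR. Each line covers 170 bases before the start and 30 from the start on, on the coding strand, with CHR and CCAAT letters of either strand in capitals.
Cdk1, chr10:69352883-69353082, minus strand: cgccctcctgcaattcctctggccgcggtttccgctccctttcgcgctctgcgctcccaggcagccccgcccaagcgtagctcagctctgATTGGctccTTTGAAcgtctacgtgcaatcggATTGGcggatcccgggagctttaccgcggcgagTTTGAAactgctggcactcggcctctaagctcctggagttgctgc
Ccnb2, chr9:70421525-70421724, minus strand: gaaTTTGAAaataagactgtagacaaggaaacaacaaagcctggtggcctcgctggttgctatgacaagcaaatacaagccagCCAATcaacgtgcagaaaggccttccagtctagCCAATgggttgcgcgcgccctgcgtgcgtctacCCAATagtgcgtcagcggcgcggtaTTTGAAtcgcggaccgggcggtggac
Top2a, chr11:99024160-99024359, minus strand: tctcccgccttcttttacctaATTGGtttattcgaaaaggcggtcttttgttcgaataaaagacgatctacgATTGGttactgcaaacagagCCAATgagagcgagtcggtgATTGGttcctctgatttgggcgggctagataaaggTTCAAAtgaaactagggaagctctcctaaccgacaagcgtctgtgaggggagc
Racgap1, chr15:99651627-99651826, minus strand: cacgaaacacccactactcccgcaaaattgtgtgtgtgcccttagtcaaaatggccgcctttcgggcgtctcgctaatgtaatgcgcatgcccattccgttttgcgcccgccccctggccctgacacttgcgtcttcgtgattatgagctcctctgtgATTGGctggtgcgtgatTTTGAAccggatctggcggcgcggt
Cenpa, chr5:30666716-30666915, plus strand: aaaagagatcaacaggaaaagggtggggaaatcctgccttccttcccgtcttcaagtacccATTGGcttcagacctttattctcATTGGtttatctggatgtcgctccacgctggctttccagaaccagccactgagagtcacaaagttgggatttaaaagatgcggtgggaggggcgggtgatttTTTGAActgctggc
Cenpf, chr1:189688057-189688256, minus strand: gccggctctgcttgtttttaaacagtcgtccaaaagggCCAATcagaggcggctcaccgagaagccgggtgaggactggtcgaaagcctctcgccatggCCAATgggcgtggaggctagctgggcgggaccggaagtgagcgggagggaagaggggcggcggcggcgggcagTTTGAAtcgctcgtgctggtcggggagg

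Top2a holds 4 CCAAT boxes and 1 CHR in these bases, Ccnb2 holds 3 and 2, Cdk1 holds 2 and 2, and Cenpf holds 2 and 1. The CHR next to the start is thus in the printed bases of Cenpf as in those of Cdk1. The nearest CCAAT box before it began 73 bases earlier in Cenpf and 33 bases earlier in Cdk1. A match describes letters only and was not tested as a binding site.

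**Figure D3:**
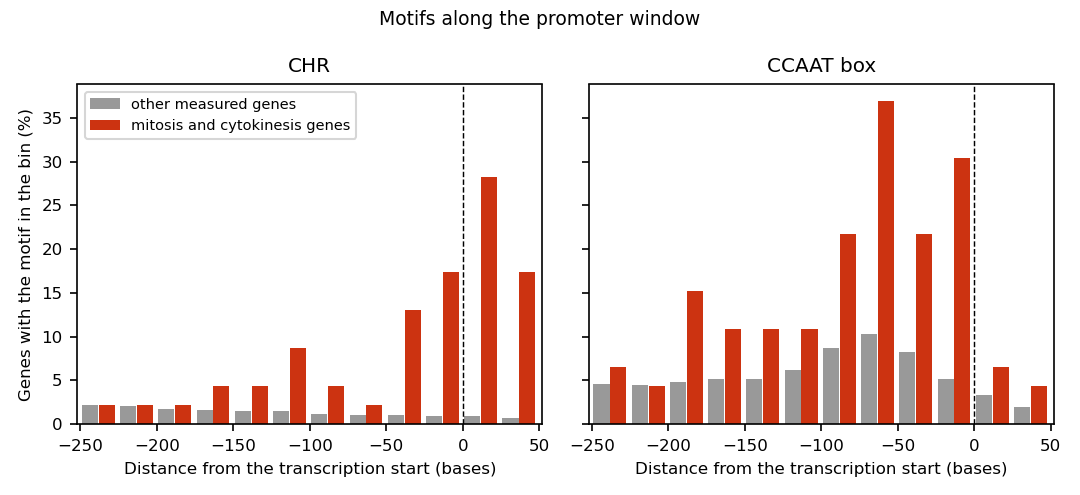
Share of genes (percent) with a CHR (left) or a CCAAT box (right) beginning in each bin of 25 bases along the promoter window, for the 46 mitosis and cytokinesis genes with a window (red) and the other genes with a ratio (grey), with a dashed line at the transcription start. The CHR of the members gathers around the start, where 28.3% of them hold one in the first bin after it against 0.934% of the other genes, and their CCAAT boxes are most frequent from 75 to 50 bases before it (37.0% against 10.3%).

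Among the regulators of mitotic entry, all 9 genes stood higher, 7 of them at least 2-fold. Cdk1, the kinase that drives entry into mitosis, was at 0.360 FPKM in control and 2.70 FPKM under HIF-PPN (log2 ratio 2.91). Of its cyclin partners, Ccna2 was at 1.14 and 3.56 FPKM (1.65), Ccnb2 at 0.286 and 1.71 FPKM (2.58), and Ccnb1 at 0.0337 and 0.311 FPKM (3.21). Cyclin A2 was thus the most abundant of these cyclin transcripts in both groups, and Ccnb1 had the lowest HIF-PPN level of all 53 genes. The row of Ccna2 covers the same locus as Exosc9, and the strand of the library is not given in the sources used here. Plk1, which encodes a kinase of centrosome maturation and spindle assembly, was at 0.261 and 1.09 FPKM (2.06), and Cdca3, which encodes an adaptor in the degradation of the CDK1 inhibitor WEE1, at 0.358 and 1.66 FPKM (2.21).
Cks1b and Cks2 encode closely related small proteins that bind CDK1 and tune its choice of substrate, and their levels differed. Cks1b was at 5.34 and 7.41 FPKM (0.47), while Cks2 was at 0.369 and 1.31 FPKM (1.83). As differences they stood higher by 2.07 FPKM for Cks1b and 0.943 FPKM for Cks2. Aurka, the spindle pole kinase, was at 0.794 and 1.26 FPKM (0.67), the smallest ratio among members under 1 FPKM in control hearts.

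The spindle checkpoint genes divided into abundant and scarce members. Bub3, which brings the checkpoint kinases to the kinetochore, was at 25.2 FPKM in control and 28.1 FPKM under HIF-PPN (log2 ratio 0.16), and Mad2l1, whose protein inhibits the activator CDC20, was at 2.84 and 4.50 FPKM (0.66). The kinases and BUBR1, which act with them, were scarce and stood higher by larger ratios. Bub1 was at 0.126 and 0.562 FPKM (2.16), and Bub1b, which encodes the checkpoint protein BUBR1, at 0.285 and 1.11 FPKM (1.97). Ttk, the kinase that starts checkpoint signalling, was at 0.0903 and 0.445 FPKM (2.30).
The 4 genes of the step from metaphase to anaphase were all higher, 3 of them at least 2-fold. Cdc20, the activator of the anaphase-promoting complex, was at 0.649 and 2.04 FPKM (1.65), in a row that covers the same locus as Elovl1. Ube2c, the ubiquitin-conjugating enzyme of that complex, was at 0.883 and 2.40 FPKM (1.44). Espl1 encodes separase, the protease that cuts cohesin, and was at 0.222 and 0.464 FPKM (1.07). Its inhibitor securin, Pttg1, was the most abundant of the 53 genes, at 60.7 and 85.7 FPKM (0.50).

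In the chromosomal passenger complex, which corrects faulty attachments and later moves to the central spindle, all 4 genes stood higher. The kinase gene Aurkb was at 0.429 FPKM in control and 1.25 FPKM under HIF-PPN (log2 ratio 1.55), and survivin, Birc5, at 0.781 and 2.57 FPKM (1.72). Borealin, Cdca8, was at 0.377 and 1.42 FPKM (1.91), and the scaffold gene Incenp at 1.08 and 2.10 FPKM (0.95). The 3 genes under 1 FPKM in control hearts were each more than 2-fold higher, and Incenp, the most abundant of the 4 in control hearts, had the smallest ratio.
Condensin I compacts mitotic chromosomes as a complex of 5 subunits, all on the list, and its genes did not have equal levels. The ATPase genes Smc4 (6.28 and 7.10 FPKM, 0.18) and Smc2 (1.08 and 2.29 FPKM, 1.09) differed from each other in control hearts. The regulatory subunit gene Ncapd2 (5.15 and 6.33 FPKM, 0.30) lay near Smc4. Ncaph, which encodes the kleisin subunit, was at 0.344 and 1.35 FPKM (1.97), and Ncapg at 0.156 and 0.995 FPKM (2.68), in a row that covers the same locus as Lcorl. Smc2 and Smc4 also serve condensin II. Topoisomerase IIα, Top2a, which untangles sister DNA, was at 0.609 and 3.39 FPKM (2.48), the highest HIF-PPN level among members that were under 1 FPKM in control hearts. Mki67, which encodes the proliferation marker Ki-67 on the chromosome surface, was at 0.533 and 2.62 FPKM (2.30).

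Of the 8 genes of the centromere and kinetochore, 6 stood higher, Cenph had no ratio and Cenpf was lower. Cenpa, the histone H3 variant that marks the centromere, was at 26.0 FPKM in control and 35.2 FPKM under HIF-PPN (log2 ratio 0.43). Cenpe, the motor that carries chromosomes to the spindle equator, was at 0.113 and 0.413 FPKM (1.87). The NDC80 complex, the microtubule anchor of the kinetochore, has 4 subunits on the list. Ndc80 itself had the largest ratio of all members, at 0.0263 and 0.669 FPKM (4.67), a value that rests on a very low control level. Nuf2 was at 0.193 and 0.768 FPKM (1.99) and Spc25 at 0.439 and 1.14 FPKM (1.38). Spc24 was at 2.67 and 3.299 FPKM (0.31) and so was the only subunit gene of this complex above 1 FPKM in control hearts.

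Cenpf stood apart from the other members in level and in direction. Its gene spans positions 189640606 to 189688107 of chromosome 1 (GRCm38) and encodes a very large coiled-coil protein that binds microtubules at the nuclear envelope before mitosis and at the kinetochore during it. In mice the protein, also studied as LEK1, is known in heart muscle cells, and its loss from the heart is known to cause dilated cardiomyopathy. Cenpf was at 7.98 FPKM in control and 3.01 FPKM under HIF-PPN (log2 ratio −1.41), which is 2.65-fold lower. Its control level was the fourth highest of the 53 genes and 19.9 times the median of the members, and its HIF-PPN level was 2.20 times their median. In HIF-PPN hearts Cenpf thus lay among the other members, next to Top2a (3.39 FPKM) and Spc24 (3.299 FPKM).
The member with the next lowest ratio was Bub3 (0.16). Of 4941 genes at 4 to 16 FPKM in control hearts, 15 had a lower ratio than Cenpf, and 0.324% had a ratio as low or lower. No other gene of the table with a value above 0 covers the locus of Cenpf. The nearest genes with a value on both sides, named for their position, Kctd3 (log2 ratio −0.07), Kcnk2 (−0.15), Ptpn14 (−0.39) and Smyd2 (−0.14), were all lower and within 2-fold. Of all genes at 1 FPKM or more in control hearts, 1.12% were at least 2-fold lower.
Genes whose proteins are known to bind CENP-F were mostly within 2-fold, as were most genes. The dynein regulator genes Nde1 and Ndel1 had log2 ratios of −0.0036 and 0.13, the nuclear pore gene Nup133 0.25, the mitochondrial adaptor gene Rhot1 −0.07, the retinoblastoma gene Rb1 0.22, Stx4a, a syntaxin gene, 0.03 and the transcription factor gene Atf4 0.31. None of the 9 partners matched was at least 2-fold lower, but only 3.78% of all genes with a ratio were. Bub1 was the one at least 2-fold higher (5.29% of all genes), and the synaptic gene Snap25 was listed at 0 in control hearts. The values are for whole genes, so they do not show whether 1 transcript of Cenpf accounts for its difference. A cause for the direction of Cenpf was not tested.

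All 9 spindle genes stood at least 2-fold higher, and none reached 1 FPKM in control hearts. Tacc3, which stabilises kinetochore fibres, was the most abundant, at 0.935 FPKM in control and 2.53 FPKM under HIF-PPN (log2 ratio 1.43). Nusap1, which encodes a bundler of spindle microtubules, was at 0.542 and 1.60 FPKM (1.56), in a row that covers the same locus as Oip5. Tpx2, the activator of Aurora A on the spindle, was at 0.328 and 1.37 FPKM (2.06), the largest ratio of this group, whose ratios ran from 1.32 to 2.06. The motor gene Kif11, whose protein pushes the spindle poles apart, was at 0.442 and 1.35 FPKM (1.61), and Kif15, which can share that work, at 0.127 and 0.389 FPKM (1.62). The chromosome-bound motor genes Kif22 (0.411 and 1.14 FPKM, 1.47) and Kif4 (0.243 and 0.691 FPKM, 1.51) had nearly the same ratio. Kif2c, a microtubule depolymerase that works at centromeres, was at 0.127 and 0.319 FPKM (1.32), and Hmmr at 0.147 and 0.519 FPKM (1.82).

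The 7 cytokinesis genes also stood at least 2-fold higher, each from under 1 FPKM. Prc1, which bundles the antiparallel microtubules of the central spindle, was at 0.367 FPKM in control and 1.995 FPKM under HIF-PPN (log2 ratio 2.44). Racgap1, a subunit of centralspindlin, was at 0.348 and 1.89 FPKM (2.44), and its motor partner Kif23 at 0.402 and 1.22 FPKM (1.61). Centralspindlin binds Ect2, the exchange factor that activates RhoA for the contractile ring, and Ect2 was at 0.392 and 1.02 FPKM (1.38). These partners thus had similar control levels and differed in the HIF-PPN level. Anillin, Anln, a scaffold of the ring, was at 0.581 and 1.503 FPKM (1.37), and the motor gene Kif20a at 0.592 and 1.33 FPKM (1.17). The row of Kif20a covers a locus shared with Brd8 and Cdc23, and the row of Anln one shared with many more expressed genes. Cep55, which starts the final abscission of the bridge between daughter cells, was at 0.0886 and 0.777 FPKM (3.13). The medians over the groups were 2.06 for entry regulators, 1.97 for the checkpoint, 1.25 for anaphase, 1.63 for the passenger complex, 1.97 for condensin and chromosome genes, 1.38 for the kinetochore, 1.56 for the spindle and 1.61 for cytokinesis. Each group but the passenger complex, spindle and cytokinesis genes also held a member with a log2 ratio under 0.7.

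Other genes of mitosis stood at least 2-fold higher only where they were under 1 FPKM in control hearts. Of 127 further genes matched in the table, 126 had a ratio, 103 were higher (51.3% of all genes), 35 were higher by 2-fold or more (5.29%) and 0 lower by as much (3.78%). All 35 were under 1 FPKM in control hearts, where they made up 35 of 52 genes, against 18.9% of all genes at that level. Of the 74 at 1 FPKM or more in control hearts, 0 were at least 2-fold higher, close to the 0.991% of all genes at that level. Their median log2 ratio was 0.09, against 0.0054 for all genes at that level.
The list of the anaphase-promoting complex, which also works outside mitosis, holds its subunits and some of its regulators. All 17 genes of this list were above 1 FPKM and within 2-fold. Anapc15 (0.45) and Anapc7 (0.23) had its highest log2 ratios, and Cdc23 (−0.14) and Anapc11 (−0.07) its lowest. The cohesin and condensin II list had a median of 0.03, with the cohesin acetyltransferase gene Esco2 (0.0761 and 0.732 FPKM, 3.27) and the cohesin protector sororin, Cdca5 (0.105 and 0.496 FPKM, 2.25), highest, and the cohesin loader genes Mau2 (−0.19) and Nipbl (−0.15) lowest.
Among other kinetochore genes, 12 of 33 were at least 2-fold higher. Kntc1 of the checkpoint complex RZZ (0.0257 and 0.494 FPKM, 4.27) and Cenpu (2.26) were highest, and Zwint (−0.10) and Mis18a (−0.08) lowest. Among other spindle and centrosome genes 12 of 34 were, with the motor gene Kif18b (3.14) and Gtse1 (2.93) highest and Clasp1 (−0.44) and Kif2a (−0.29) lowest. Among other kinases and phosphatases 5 of 13 were, with Pbk (2.65) and Nek2 (2.64) highest and Bora (−0.13) and Cdc25a (−0.01) lowest. Among other cytokinesis genes 4 of 13 were, with Depdc1a (2.67) and Iqgap3 (2.46) highest and Rhoa (−0.04) and Sept7 (0.02) lowest.

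**Figure D4:**
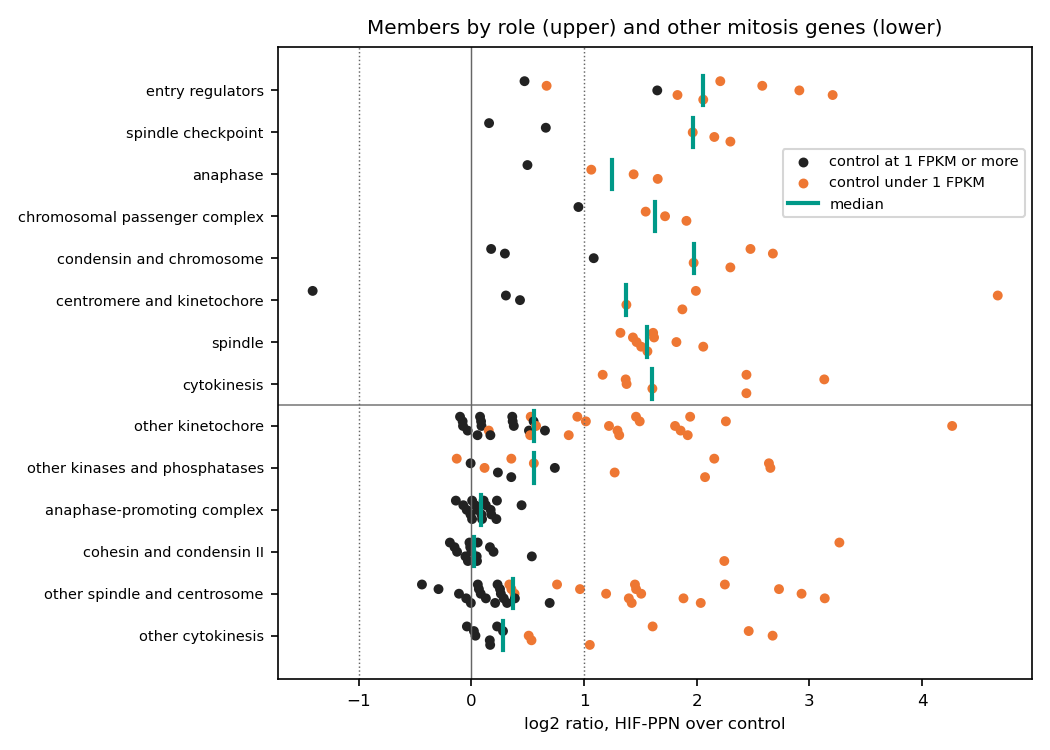
log2 ratio of HIF-PPN over control for the mitosis and cytokinesis genes by role (above the line) and for other genes of mitosis by list (below it), black for genes at 1 FPKM or more in control hearts and orange for those under it, with the median of each row in green and dotted lines at 2-fold. Black points lie within 2-fold in every row, with the exceptions of Ccna2, Smc2 and Cenpf, while most orange points lie to the right of 1.

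Markers of the cell types that ventricle can hold were read beside these genes. Among all genes with a ratio 51.3% were higher. Among those at 1 FPKM or more in control hearts 50.9% were higher and only 1.12% were at least 2-fold lower. All 12 cardiomyocyte markers were present, with Myl2 at 12804 FPKM in control hearts, and 11 of 12 were lower, none by 2-fold (median log2 ratio −0.18, summed level 48082 and 42461 FPKM). Endothelial markers had a median of −0.06 (10 genes, 7 lower, summed 1392 and 1685 FPKM), with Fabp4, which fat cells also express, at 916 and 1233 FPKM. Fibroblast markers had a median of −0.10 (8 genes, 830 and 740 FPKM) and smooth muscle and pericyte markers one of −0.0033 (8 genes, 468 and 363 FPKM). Macrophage and neutrophil markers had a median of −0.37 (10 genes, 275 and 230 FPKM), with 9 of 10 lower. Lymphocyte markers were scarce (8 genes, 6.52 and 6.18 FPKM, median −0.28). Among them 5 of 8 were lower. Of the 6 under 1 FPKM in control hearts, 1 was at least 2-fold higher, against 18.9% of all genes at that level. The adipocyte list was the one that stood higher as a whole, 8 of 8 genes (summed 18.0 and 61.0 FPKM, median 2.24). At least 2-fold higher were 7, against 5.29% of all genes with a ratio. Of its 5 genes at 1 FPKM or more in control hearts 4 were, against 0.991% of all genes at that level. Its most abundant genes were Cfd (4.98 and 21.0 FPKM), Pparg (7.39 and 8.53 FPKM, within 2-fold) and Ucp1 (1.72 and 12.9 FPKM). No marker of these lists was at 0 in either group. Which cells carried the mitosis transcripts was not measured, and the part of fat cells in these values was not tested.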

How the data were processed

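RNA from 6 ventricle samples was enriched for poly A RNA and sequenced in paired ends. The authors used Bowtie and TopHat for alignment, Cufflinks for quantification and Cuffdiff for calling differential expression between the groups. The deposited values are FPKM, with 1 value per group, so single mice, read counts and depth are unknown. Gene positions match mm10 (GRCm38). A further column of the authors' log2 fold changes was not used, and 1 line of the table was empty. The log2 ratio was computed from both FPKM values with no pseudocount, for rows above 0 in both groups. A gene was counted at 2-fold or more, and 1 FPKM in control hearts separated abundant from scarce genes. The planned design had no test. All members were described. Of the other lists, genes past 2-fold at 1 FPKM in control or else the 2 highest and 2 lowest were named, and 3 markers of a list were the limit. Members, lists and motifs were chosen with earlier results of these data known. Alternatives were pseudocounts of 0.1 and 1 FPKM, thresholds of 1.5-fold and 3-fold, centring, other minimum levels, a shorter promoter window and, added after seeing the data, leaving out members that share a locus with another expressed gene. The erythroid marker list is not reported here. Fold calls were tested on simulated data made without noise, which checks the arithmetic and not the calls on scarce genes. Promoters were credited to RefSeq GRCm38.p6. Ratios and counts were made in pandas 2.3.3 with numpy 2.4.6 under python 3.11.15, and plots in matplotlib 3.10.9.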

Additional observations from a re-analysis of the deposited data

How the results depend on the processing

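No paired analysis was possible because the deposited columns merge the 3 mice of each group, and for the same reason no replicate could be left out. The 41 members at least 2-fold higher became 8 with 1 FPKM added to both values and 14 with a mean of at least 1 FPKM. At that mean 24 members were higher, fewer genes being left, and a mean over both groups lets in genes through their higher value. The median log2 ratio of 1.62 became 1.40 and 0.66 with 0.1 and 1 FPKM added, 1.61 after centring, and 1.37 and 1.56 at means of at least 1 and 0.5 FPKM. The 2 members at least 2-fold higher among those at 1 FPKM in control hearts became 1 with 1 FPKM added, 1 at a 3-fold threshold, 4 at 1.5-fold and 1 without members that share a locus. They became 11 with a minimum of 0.5 FPKM in control hearts and 28 with a minimum of 1 FPKM in HIF-PPN hearts, which does the same, with 21 and 38 higher. No member was 3-fold lower. The log2 ratio of Cenpf became −1.16 with 1 FPKM added and −1.42 after centring. Of other mitosis genes, 0 were at least 2-fold higher with a mean of at least 1 FPKM. The share of all genes past the threshold was not counted at these other settings, so the counts at them have no background. The number of fragments behind levels under 1 FPKM is unknown.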

Other observations

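The genes of a list of regulators of G2 and M phase transcription were mostly within 2-fold, as were most genes. Of 13 matched genes of this list, which holds MuvB subunits, pocket proteins and NF-Y subunits, 9 were higher (51.3% of all genes). The median log2 ratio was 0.13. At least 2-fold higher was 1, Mybl2 (5.29% of all genes), and 0 were lower by as much (3.78%). At 1 FPKM or more in control hearts were 12 of the 13. Mybl2, which encodes B-Myb, was at 0.0180 FPKM in control and 0.391 FPKM under HIF-PPN (log2 ratio 4.44). Rbl1, which encodes p107, was at 1.28 and 2.20 FPKM (0.79), and the lowest were Nfyc (−0.35) and Lin37 (−0.33). Foxm1 shares its row with 4933413G19Rik, and that row, named after its values were seen, was at 0.435 and 1.15 FPKM (1.41).

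Promoters with both a CHR and a CCAAT box from 100 bases before to 50 after the start were also found for 179 genes with a ratio that are not members. Of the 57 under 1 FPKM in control hearts, 16 (28.1%) were at least 2-fold higher, against 18.7% of 2588 genes with other promoters at that level, and 8 (14%) were lower by as much, against 11.9%. Of the 122 at 1 FPKM or more, 0 were at least 2-fold higher, against 0.815% of 8713 with other promoters. Lower by as much was 1 (0.82%), against 1.01%. The highest of these 122, named after their values were seen, were the replication gene Cdc45 (1.35 and 2.48 FPKM, log2 ratio 0.87) and Lhx6 (1.39 and 2.43 FPKM, 0.81). These are descriptions, with no test.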
